A study of Mus musculus with 4 samples.

Results

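*Dlx1*, *Dlx2*, *Dlx5*, *Dlx6*, *Lhx6*, *Gad1*, *Gad2* and *Gsx2* are genes of the subpallium and of the GABAergic interneurons that arise there. They were taken by gene symbol and make up 8 of the 23038 genes in the deposited files. Their alternative splicing events were taken by gene identifier, which gave 3 of 38240 events, 1 in *Dlx1* and 2 in *Lhx6*. The other 6 genes had none.

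The samples are poly(A)-selected mRNA of mouse cortex on embryonic day E14.5, from 2 control and 2 *Qk cKO* embryos. Controls carried floxed *Qk* alleles (*Qk* fl/fl) without Cre and are called wild type in the sample labels, while *Qk cKO* embryos were *Nestin*-Cre:*Qk* fl/fl littermates. Cre under the *Nestin* promoter acts on the floxed alleles of neural progenitors and their descendants, while cells of other origin, such as microglia, keep them. For each gene, Quantas gave a number of tags, which is an estimated count, and its RPKM, which scales the tags to exon length and sequencing depth.

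In the developing forebrain the subpallium produces most GABAergic neurons, while the pallium, which becomes the cortex, produces glutamatergic neurons. Gsx2 acts in subpallial progenitors, followed by the Dlx homeodomain factors, and Lhx6 is kept by interneurons of the medial ganglionic eminence as they migrate into the cortex. Gad1 and Gad2 make the transmitter GABA in nearly all of these cells. In a cortical sample, transcripts of these genes can come from immigrating interneurons and from subpallial tissue taken along in the dissection.

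Total tags per sample ranged from 37942046 to 42994832, and TMM scaling factors from 0.989 to 1.01. The targeted exon of *Qk* followed the labels. Tags on the junction of *Qk* exons 2 and 3 numbered 635 and 565 in controls and 63 and 68 in *Qk cKO*. Relative to the next junction, this was 6.40% of the control level. The level of *Qk* as a whole was higher in *Qk cKO*, at 32.5 and 34.2 RPKM against 21.1 and 21.7 in controls (log2 fold change 0.65, FDR = 2.50e-05 by edgeR). Of the 18834 genes with at least 1 tag, 110 passed p below 0.01 and FDR below 0.1 in edgeR's quasi-likelihood test, which is 0.584%. These thresholds define a called gene below. GENCODE release M21 (GRCm38, the same build as mm10) gave the positions, which are counted from 1, unless RefSeq is named.

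None of the 8 genes was called in edgeR's quasi-likelihood test, beside 0.207% of all genes called higher and 0.377% called lower. None was called with edgeR's exact test or with DESeq2, which gave no adjusted p for 2 of the 8, *Dlx6* and *Gsx2*. At an unadjusted p below 0.05, 2 of the 8 were higher in *Qk cKO*, *Gad1* and *Gad2*, against 8.76% of all genes (4.33% higher and 4.43% lower). All 8 had tags in every sample and a mean RPKM above 1. Their summed RPKM was 158.5 and 166.0 in controls and 168.9 and 168.1 in *Qk cKO*. The median log2 fold change of the 8 was 0.094, beside -0.0025 for all genes tested, and with each sample left out in turn it ran from 0.057 without *Qk cKO* 1 to 0.14 without *Qk cKO* 2. In bulk RNA, a change in the number of these cells and a change in RNA per cell cannot be told apart.

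*Gsx2* specifies progenitors of the lateral ganglionic eminence and lies on chr5:75075601-75077893 on the plus strand. It was the least abundant of the 8, with 2.94 and 2.37 RPKM in controls and 3.07 and 2.54 in *Qk cKO*. The groups overlapped, and in each group the samples numbered 2 lay below those numbered 1. These levels rest on only 150 to 220 tags per sample. The log2 fold change was 0.092 (SE 0.19, 95% interval -0.29 to 0.48, FDR = 0.926 by edgeR), whose upper end corresponds to 1.39-fold.

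*Dlx1* and *Dlx2* form a convergent pair of homeobox genes on chromosome 2 and act in subpallial progenitors and young GABAergic neurons. *Dlx1* (chr2:71528113-71533981, plus strand) was the most abundant of the 8 genes, with 51.3 and 53.3 RPKM in controls and 55.4 and 55.4 in *Qk cKO*. Both *Qk cKO* samples lay above both controls, but the difference was not called (log2 fold change 0.096, SE 0.056, 95% interval -0.022 to 0.21, FDR = 0.695 by edgeR). *Dlx2* (chr2:71543408-71546754, minus strand) had 24.9 and 27.3 RPKM in controls and 23.7 and 25.0 in *Qk cKO*. Here the groups overlapped and the fitted difference had the opposite sign (log2 fold change -0.087, SE 0.078, FDR = 0.831 by edgeR). With 1 sample left out it ran from -0.15 without control 1 to -0.025 without control 2. The ratio of *Dlx1* to *Dlx2* RPKM was 2.06 and 1.95 in controls and 2.34 and 2.22 in *Qk cKO*.

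*Dlx5* and *Dlx6*, the other pair, lie on chromosome 6 and are switched on after *Dlx1* and *Dlx2* as the cells leave the ventricular zone. *Dlx5* (chr6:6877805-6882085, minus strand) had 19.5 and 22.0 RPKM in controls and 20.3 and 21.2 in *Qk cKO*, so both *Qk cKO* samples fell between the controls. Its log2 fold change was 0.014 (SE 0.11, FDR = 0.988 by edgeR). *Dlx6* (chr6:6863334-6868568, plus strand) had 10.5 and 10.8 RPKM in controls and 11.6 and 9.09 in *Qk cKO*. For *Dlx6* the *Qk cKO* samples lay on either side of the controls and differed by 0.37 on the log2 scale, more than the fitted change of -0.026 (SE 0.14, FDR = 0.976 by edgeR). The ratio of *Dlx5* to *Dlx6* RPKM, with deposited exon lengths, ranged from 1.75 to 2.33, and both of these extremes were *Qk cKO* samples.

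*Lhx6* encodes a LIM homeodomain factor needed for interneurons of the medial ganglionic eminence to migrate and to express somatostatin or parvalbumin. The gene lies on chr2:36081953-36105408 on the minus strand. It had 18.2 and 18.1 RPKM in controls and 19.6 and 20.2 in *Qk cKO*. Replicates were close, and both *Qk cKO* samples lay above both controls. The fitted difference was 10.4% (log2 fold change 0.14, SE 0.072, 95% interval -0.0069 to 0.29) and was not called (FDR = 0.607 by edgeR).

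*Gad1* and *Gad2* encode the glutamate decarboxylases GAD67 and GAD65, which make GABA from glutamate. *Gad1* (chr2:70553072-70602014, plus strand) had 15.1 and 14.55 RPKM in controls and 16.4 and 16.5 in *Qk cKO*. *Gad2* (chr2:22622205-22693874, plus strand) had 15.9 and 17.5 RPKM in controls and 18.9 and 18.1 in *Qk cKO*. For both genes the *Qk cKO* samples lay above the controls. The log2 fold change was 0.16 for *Gad1* (SE 0.056, 95% interval 0.043 to 0.28), a difference of 11.7%, with FDR = 0.335 by edgeR. That of *Gad2* was also 0.16 (SE 0.058, 95% interval 0.037 to 0.28), with FDR = 0.374 by edgeR. Differences of this size were common, as 23.3% of the 12743 genes with a mean RPKM of at least 1 had an absolute log2 fold change at least as large as that of *Gad1*. The median SE of those 12743 genes was 0.11, above that of *Gad1*, so this share is not matched for precision. With each sample left out in turn, the log2 fold change of *Gad1* ranged from 0.13 to 0.19. That of *Gad2* ranged from 0.093 without control 1 to 0.22 without control 2. The number of the 8 genes at an unadjusted p below 0.05 was then 1 without control 1, 1 without control 2, 0 without *Qk cKO* 1 and 2 without *Qk cKO* 2.

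**Figure D1:**
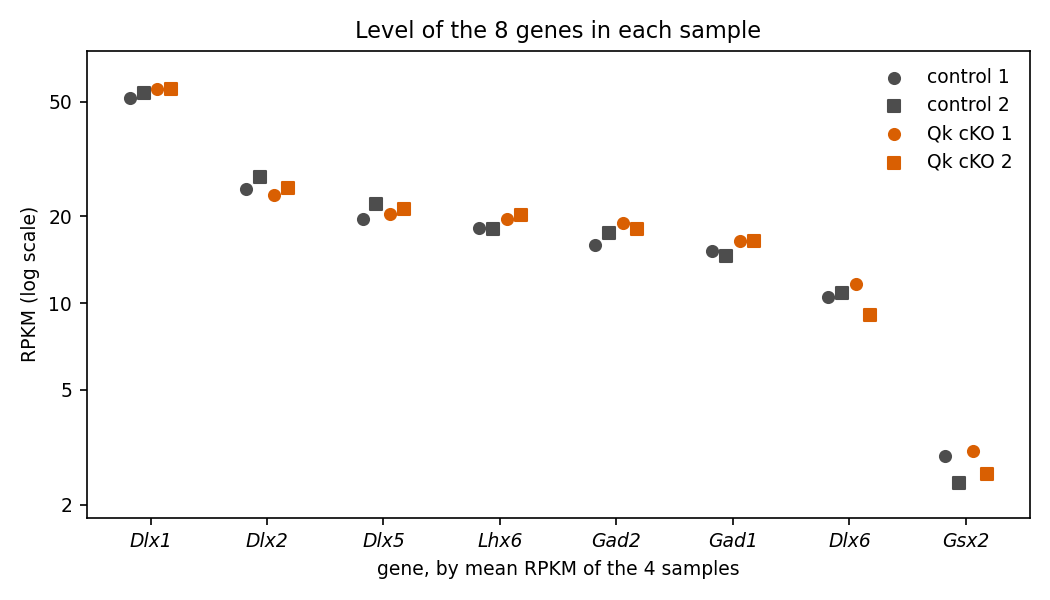
RPKM of each of the 8 genes (log axis) in the 2 control samples (grey) and the 2 *Qk cKO* samples (orange), with circles for replicate 1 and squares for replicate 2. Genes are ordered by mean RPKM, from *Dlx1* at 53.9 to *Gsx2* at 2.73, and in no gene is the highest sample more than 1.29 times the lowest.

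By mean RPKM the order was *Dlx1* (53.9), *Dlx2* (25.2), *Dlx5* (20.8), *Lhx6* (19.02), *Gad2* (17.6), *Gad1* (15.6), *Dlx6* (10.5) and *Gsx2* (2.73). The ranges of neighbouring genes overlapped over the 4 samples for *Dlx5* and *Lhx6*, for *Lhx6* and *Gad2*, and for *Gad2* and *Gad1*. The ranges of the other neighbours were separate. Levels between genes depend on the exon length used. The deposited length of *Gad1* was 7135 nt, while its longest coding transcript in GENCODE has 3355 nt. With such transcript lengths for all 8 genes, an alternative chosen after the data were seen, *Gad1* moved from rank 6 to rank 2 at 33.2 RPKM. The ratio of *Gad1* to *Gad2*, 0.829 to 0.949 with deposited lengths, then became 1.47 to 1.69. *Dlx6* has 1071 nt as deposited and 2216 nt in its longest coding GENCODE transcript. With the latter its mean was 5.08 RPKM, so the ratio of *Dlx5* to *Dlx6* also depends on the length used. Comparisons between genotypes are not affected by these lengths.

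**Figure D2:**
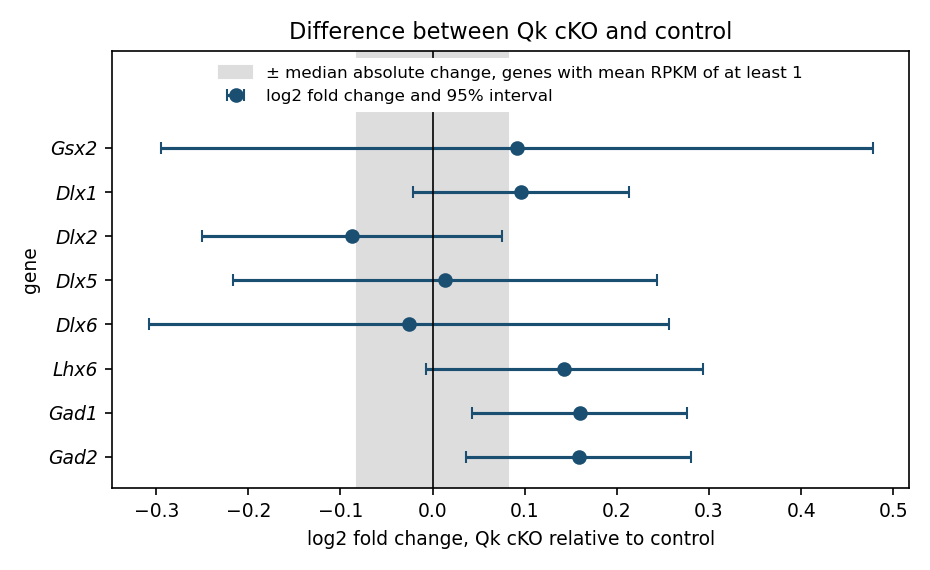
Log2 fold change of *Qk cKO* relative to control for each of the 8 genes, with its 95% interval from edgeR's quasi-likelihood fit (2 samples per group). The grey band spans plus and minus 0.082, the median absolute log2 fold change of genes with a mean RPKM of at least 1, and only the intervals of *Gad1* and *Gad2* leave out 0.

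Over the 8 genes, both *Qk cKO* samples were above both controls in 4, *Dlx1*, *Lhx6*, *Gad1* and *Gad2*, and below both in 0. Among all genes tested, 18.6% lay above in this way and 18.3% below, and among genes with a mean RPKM of at least 1, 21.2% and 19.5%. The 4 genes are measured in the same RNA and are active in the same cells, so they are not 4 separate observations. The upper ends of the 95% intervals were 1.21-fold for *Gad1* and *Gad2*, 1.23-fold for *Lhx6* and 1.16-fold for *Dlx1*.

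Other genes of these cells were read from lists of known markers. Calls in these lists refer to edgeR's quasi-likelihood test, and a list with 0 called had 0 with edgeR's exact test and DESeq2 as well, although DESeq2 left some weakly expressed genes of each list without an adjusted p. Of 18 other subpallial transcription factors, 0 were called and the median log2 fold change was -0.095. Both *Qk cKO* samples lay above both controls in 3 and below both in 7, beside 18.6% and 18.3% of all genes tested. The median ran from -0.16 without control 1 to -0.029 without control 2. At an unadjusted p below 0.05 there were 5 of these factors, named here after their values were seen. *Lhx8*, a factor of the medial eminence, was the 1 with the higher value in *Qk cKO*. The 4 with lower values were *Sp9*, *Olig1*, *Six3* and *Vax1*. *Sp9*, a zinc-finger factor of lateral eminence neurons, had 4.14 and 3.94 RPKM in controls and 3.04 and 2.61 in *Qk cKO* (log2 fold change -0.50, SE 0.14, FDR = 0.159 by edgeR), and passed the threshold without *Qk cKO* 1 (FDR = 0.0439 by edgeR).

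Of 20 genes of migrating or maturing interneurons, 0 were called and the median log2 fold change was 0.091. It was 0.078 over the 18 that had more than 3 tags in a group. Named after their values were seen, *Pvalb* and *Vip*, markers of interneurons that mature after birth, were at 0 in 3 of 4 samples, with 3 tags each in *Qk cKO* 1. The most abundant were the neuropeptide gene *Sst*, with 55.1 and 49.4 RPKM in controls and 47.9 and 56.7 in *Qk cKO*, and *Calb2*, which encodes calretinin, with 31.3 and 27.7 against 30.8 and 22.6. Both overlapped between groups. *Sox6* and *Zeb2* had higher values and *Nr2f2* lower values in *Qk cKO* at an unadjusted p below 0.05, and were named for this.

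Among the 4 remaining *Dlx* transcripts, *Dlx4* was at 0 in every sample and *Dlx3* had at most 7 tags. The other two are antisense RNAs. *Dlx6as1*, also called *Evf2*, is a long noncoding RNA on the opposite strand whose annotated span includes *Dlx6*. It had 18.4 and 18.5 RPKM in controls and 20.7 and 22.9 in *Qk cKO*, with no overlap between groups (log2 fold change 0.25, SE 0.064, FDR = 0.128 by edgeR). It was not called, except without *Qk cKO* 1 (log2 fold change 0.31, FDR = 0.0360 by edgeR). *Dlx1as* had 54.4 and 55.5 RPKM in controls and 59.7 and 57.2 in *Qk cKO* (log2 fold change 0.10, SE 0.053, FDR = 0.619 by edgeR). The library kit does not mark strand, so reads of *Dlx1as* and *Dlx1* cannot be told apart where their exons overlap. Of the exon bases of *Dlx6*, 4.38% lie under exons of another opposite-strand gene, *Dlx6os2*.

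Of 13 genes for GABA transport, breakdown and reception, 0 were called and the median log2 fold change was -0.070. This median reversed to 0.081 without control 2 and was -0.12 without control 1. The receptor gene *Gabbr1* had 60.2 and 69.5 RPKM in controls and 62.5 and 64.1 in *Qk cKO*, so that the groups overlapped. *Slc6a11*, which encodes a glial GABA transporter, was the 1 gene with an unadjusted p below 0.05 and was named for it, at 3.44 and 3.87 RPKM in controls and 2.47 and 2.68 in *Qk cKO* (log2 fold change -0.49, SE 0.12, FDR = 0.112 by edgeR). *Slc32a1*, the vesicular GABA transporter that loads what Gad1 and Gad2 make, had 6.65 and 6.95 RPKM in controls and 6.01 and 6.01 in *Qk cKO*, and was named after its values were seen. Its values lay on the other side of the controls from those of *Gad1* and *Gad2* (log2 fold change -0.17, SE 0.11, FDR = 0.753 by edgeR).

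The tissue label was checked with 3 further lists. The 15 pallial genes had a summed RPKM of 540.5 and 484.3 in controls and 487.3 and 525.9 in *Qk cKO*, with 0 called and a median log2 fold change of -0.042. The median reversed to 0.029 without control 1 and to 0.050 without *Qk cKO* 1, and was -0.098 without control 2. *Neurod6*, a factor of glutamatergic neurons, was the most abundant of these, from 138 to 167 RPKM, and the progenitor gene *Lhx2* followed, from 48.4 to 57.3. All 15 had a mean RPKM above 1. *Nkx2-1*, which medial eminence progenitors express and pallial progenitors lack, was named after its values were seen and was present at 6.79 and 7.26 RPKM in controls and 5.94 and 6.31 in *Qk cKO*.

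The 18 hypothalamic and diencephalic genes differed between groups. Of these, 7 were called lower and 0 higher by edgeR's quasi-likelihood test. Both *Qk cKO* samples lay below both controls in 14, beside 18.3% of all genes tested. The list was chosen with earlier results of these data known. The study's own list of changed transcripts, made from the same samples, holds *Nr5a1*, *Six6*, *Pomc*, *Lhx1* and *Nkx2-2*. These counts are thus no independent check. The summed RPKM of the 18 genes was 21.5 and 42.0 in controls and 18.5 and 9.77 in *Qk cKO*, highest in control 2. Without control 2, 0 of these genes were called and 5 had an unadjusted p below 0.05, and DESeq2 gave no adjusted p for the 7. Lower calls numbered 3 without control 1, 12 without *Qk cKO* 1 and 3 without *Qk cKO* 2. *Nr5a1*, a marker of the ventromedial hypothalamus, had 0.205 and 0.603 RPKM in controls and 0.0110 and 0.0115 in *Qk cKO* (FDR = 0.000900 by edgeR). *Six6*, *Pomc*, *Lhx1* and *Nkx2-2* were also among the called, with FDR from 0.00211 to 0.0547 by edgeR. *Tcf7l2*, the most abundant of the list and a marker of the thalamus, had 6.58 and 16.7 RPKM in controls and 6.99 and 1.56 in *Qk cKO*. *Rax*, named after its values were seen, was at 0 in *Qk cKO* 1. Hypothalamic neurons also express *Gad1*, *Gad2* and *Dlx* genes, and *Six3*, *Vax1* and *Nkx2-1* are active there as well. The part of this difference in the values of the 8 genes was not tested.

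The 16 non-neural genes that were found had a summed RPKM from 988.6 to 1211.6, with 0 called and a median log2 fold change of 0.063. Without *Qk cKO* 1 the median was 0.20 and 5 genes were called higher, and without *Qk cKO* 2 it reversed to -0.064 with *Hba-a2* called higher and *Col1a1* lower. Most of this sum was *Ttr*, the choroid plexus gene, from 561 to 779 RPKM, followed by the globin gene *Hba-a2*, from 198 to 245. At an unadjusted p below 0.05, the collagen and matrix genes *Col3a1*, *Lum* and *Dcn* had higher fitted values in *Qk cKO*, and were named for this. *Lum* and *Dcn* overlapped between groups.

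**Figure D3:**
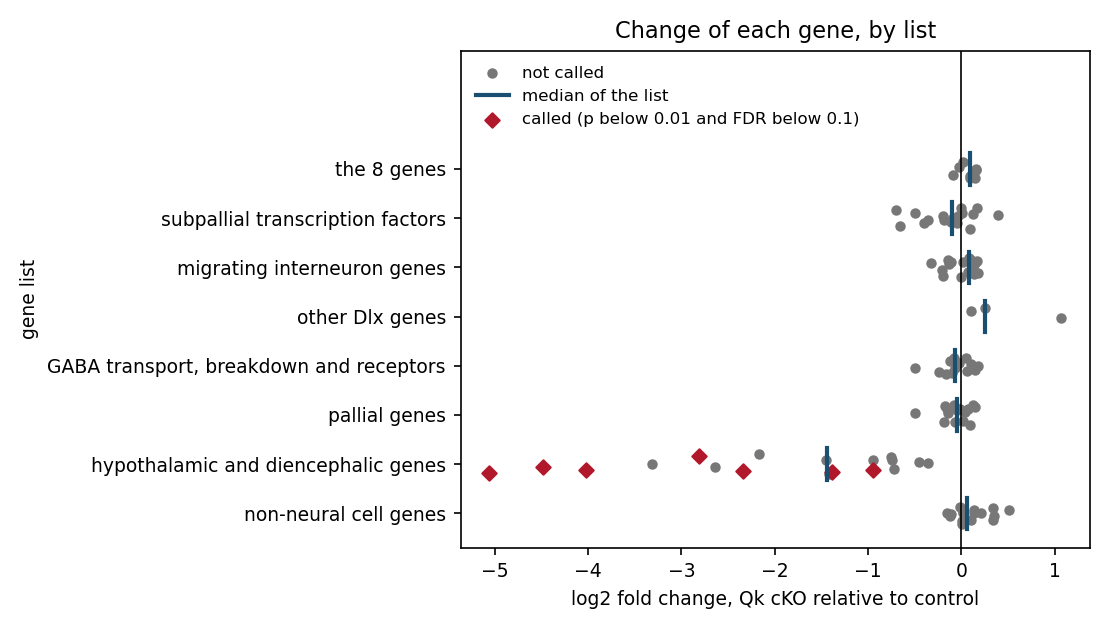
Log2 fold change of *Qk cKO* relative to control for each gene of the 8 lists, without the genes that had 3 tags or fewer in both groups. Blue bars mark list medians and red diamonds the called genes, all 7 of which are hypothalamic and diencephalic genes below 0, while the 8 genes lie between -0.087 and 0.16.

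Splicing of the 8 genes was then read from the 3 deposited events. Inclusion is the share of junction tags that support the longer form, and the change in inclusion (Δ*I*) is control minus *Qk cKO*. Events with a coverage of at least 20 tags were compared with Fisher's exact test on tags summed over replicates. Coverage is the smallest of the junction tag totals of each group and of each form. Of the 3 events 2 reached this coverage, and 0 of these were called, while 862 of all 11500 tested events were called (7.50%, with 9.28% of cassette exons and 4.67% of retained introns).

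Intron 2 of *Dlx1*, on chr2:71531157-71532263, separates exon 2 from exon 3 and interrupts the region that encodes the homeodomain. It has 1107 nt and canonical ends. Its ends are shown because tags across them carry the measurement, with exon bases in capitals, from the GENCODE transcript that retains the intron (plus strand).
5′ end, chr2:71531137-71531176: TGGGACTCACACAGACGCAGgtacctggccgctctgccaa
3′ end, chr2:71532244-71532283: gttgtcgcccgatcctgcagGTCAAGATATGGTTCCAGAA
Read in frame from exon 2, the intron holds a stop within its first 219 bases, which would leave 243 codons in place of 255.

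Tags that cross the 5′ end without splicing numbered 328 and 281 in controls and 400 and 390 in *Qk cKO*, and those at the 3′ end 268 and 270 against 364 and 316. Spliced tags numbered 292 and 286 in controls and 308 and 309 in *Qk cKO*. Retention was therefore 0.505 and 0.491 in controls and 0.554 and 0.533 in *Qk cKO*, so that the groups did not overlap. Scaled to depth as CPM, the retained form had 14.39 and 14.52 in controls and 17.8 and 17.2 in *Qk cKO*, with the tags of both ends added. The spliced form, counted at a single junction, had 7.05 and 7.54 against 7.16 and 7.52. Thus the unspliced tags were higher in *Qk cKO* and the spliced tags overlapped between groups. The Δ*I* of the summed tags was -0.046 (95% Newcombe interval -0.085 to -0.0063, counting error only) and was not called (Fisher's exact test, p = 0.00945, FDR = 0.145). This test added the retained tags of both ends, while Δ*I* used their mean. With junction tags only, which take that mean, Fisher's exact test gave p = 0.0246 and FDR = 0.589. An edgeR test of the isoform by genotype interaction, which includes the spread between samples, gave FDR = 0.732.

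Retention of this intron was high next to other introns, above that of 84.4% of the 1928 tested introns, whose median in controls was 0.114. It cannot be read as retention alone. In GENCODE, exons of *Dlx1as* on the opposite strand cover 0 bases of the intron and 6.21% of all exon bases of *Dlx1*. The RefSeq span of *Dlx1as* is longer and begins at position 71530638. A stretch from there to the end of the annotated *Dlx1as* exon at 71533118 has 2481 nt and, with its other exon of 312 nt, adds up to 2793 nt, which is the exon length deposited for *Dlx1as*. RefSeq exon coordinates were not used here, so this exon is inferred from the match in length. The stretch covers all 1107 bases of *Dlx1* intron 2 and 25.7% of the exon bases of the longest coding *Dlx1* transcript. Since reads carry no strand, unspliced tags at both ends of the intron may come from *Dlx1as* or from *Dlx1*, and these cannot be told apart, whereas the spliced tags show the strand by their splice sites.

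In *Lhx6* the tested event was a cassette exon of 104 nt on chr2:36087368-36087471, exon 9 of 10 in the longest GENCODE transcript that includes it. It lies between introns of 3490 and 3292 nt. GENCODE lists 3 transcripts that include it and 4 that join its neighbours. The exon is shown in capitals between the last 30 bases of exon 8 and the first 30 of the last exon (minus strand, written 5′ to 3′), followed by the same neighbours joined without it.
included: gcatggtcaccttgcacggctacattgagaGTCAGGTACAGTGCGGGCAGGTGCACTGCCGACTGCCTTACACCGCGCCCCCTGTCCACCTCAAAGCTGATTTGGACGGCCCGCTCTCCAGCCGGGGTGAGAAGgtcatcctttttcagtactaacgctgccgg
skipped: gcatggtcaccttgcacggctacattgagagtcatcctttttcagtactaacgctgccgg
Because its length is not a multiple of 3, the exon shifts the reading frame of the last exon and so changes the C-terminus of the protein. The last exon is read as follows in each case, with the stop codon in capitals.
after the cassette exon: gtcatcctttttcagtacTAA
without it: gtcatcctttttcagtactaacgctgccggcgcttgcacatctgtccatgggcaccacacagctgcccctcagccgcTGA
With the exon the last exon adds 18 coding bases and the protein has 392 codons, and without it the last exon adds 77 and the protein has 377.

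Inclusion of this exon was 0.333 and 0.400 in controls and 0.438 and 0.404 in *Qk cKO*. Both forms were thus present in every sample, and by this ratio the shorter one had the larger share. Both *Qk cKO* samples lay above both controls, *Qk cKO* 2 only just above control 2. Tags for the included form numbered 43.0 and 49.0 in controls and 63.0 and 63.0 in *Qk cKO*, and those for the skipped form 49.0 and 45.0 against 50 and 51.0. The Δ*I* was -0.054 (95% Newcombe interval -0.16 to 0.053) and was not called (Fisher's exact test, p = 0.235, FDR = 0.594). It ran from -0.021 without control 1 to -0.088 without control 2. With junction tags only, Fisher's exact test gave p = 0.363 and FDR = 0.812. At this depth the interval of the summed tags, which covers counting error only, included up to 0.16 more inclusion in *Qk cKO* as well as none.

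The third event, an alternative 3′ splice site of *Lhx6* that moves an exon start by 54 nt, had a coverage of 12.2 tags and was not tested. That coverage is the total of the longer form over all samples. The longer form was rare, at 0.038 and 0.063 in controls and 0.045 and 0.063 in *Qk cKO*. These ratios rest on only 2.04 and 4 junction tags of that form in controls and 2.18 and 4 in *Qk cKO*.

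**Figure D4:**
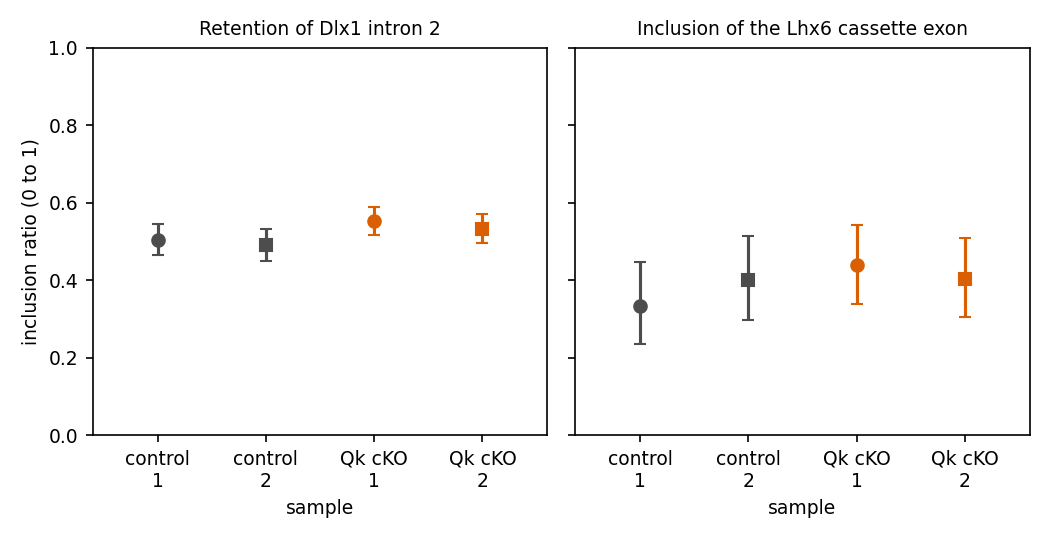
Retention of *Dlx1* intron 2 (left) and inclusion of the *Lhx6* cassette exon (right) in each sample, as a ratio from 0 to 1, with 95% Wilson intervals that cover counting error only. Retention runs from 0.491 to 0.554 and inclusion of the *Lhx6* exon from 0.333 to 0.438. In both events the *Qk cKO* points lie above the control points while intervals of the groups overlap, and the intervals are wider for *Lhx6*.

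The motif ACTAAC, which Qki binds in RNA as ACUAAC, was searched on both strands (GTTAGT on the other). It was in neither *Dlx1* intron 2 nor the *Lhx6* cassette exon. Of 135 tested introns of 0.75 to 1.25 times the length of that intron 14.8% held it, and of 1394 internal exons of 104 nt 0.430% held it. For GTTAGT the shares were 16.3% and 0.717%. In the first 80 bases of the *Lhx6* last exon it occurred at bases 17 to 22, where it overlaps the stop codon TAA used after the cassette exon. Of 63621 last exons, 0.662% held it in as many first bases, and 0.409% held GTTAGT. Introns beside the *Lhx6* exon were not searched here.

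Among the genes whose pattern over the 4 samples was closest to the median pattern of the 8 genes were *Pold3*, *Scn8a*, *Ctnnd1* and *Ube4a*. Likeness was the Euclidean distance between log2 CPM values centred on each gene's mean. It was taken among 9944 other genes with a mean RPKM of at least 1 and a range at least that of the median pattern. The distances of the genes named were 0.018 to 0.022, and the median pattern itself was -0.055 and -0.020 in controls and 0.071 and 0.034 in *Qk cKO*. The separation of the groups in this median pattern was not shared by *Dlx2*, *Dlx5*, *Dlx6* and *Gsx2*, whose groups overlapped. With 4 samples and so small a range, these likenesses are a description only.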

How the data were processed

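mRNA of E14.5 cortex from 2 control and 2 *Qk cKO* samples was analysed. The labels name 2 replicates in each group, as do the results of the study, and its methods name 3. The authors aligned reads to mm10 with OLego and quantified them with Quantas (versions not given in the sources used here). For each gene the authors deposited an estimated count of tags and the RPKM made from it, and for each splicing event estimated counts of tags per isoform and junction. Tag numbers that were not whole, 8.41% to 12.1% of genes by sample, were rounded. Levels were compared with edgeR 4.0.16 (R 4.3.3), by the quasi-likelihood test with TMM scaling. The 18834 genes holding 1 tag or more entered the fit, and Benjamini-Hochberg FDR was taken over all of them. The standard error was taken from the F statistic.

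For events, Fisher's exact test (scipy 1.17.1) was applied to summed isoform tags, with adjustment within each of 6 event types. The test on summed tags leaves out the spread between samples. Intervals cover counting error only, and tags are not independent molecules. The labels call the replicates independent, and no further detail of animals per library was used.

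The 8 genes, the marker lists and the thresholds were chosen with earlier results of these data known. All 8 genes were named. From each list the called genes (up to 5 by p) and the 2 most abundant were named, with others marked as chosen after their values were seen. Some items chosen by this rule are not reported here. *Ackr3* and *Dlx6os1* appear in the files as *Cxcr7* and *Dlx6as1*, and *Hbb-bt* was not analysed here. The alternatives for levels were DESeq2 1.42.0, the exact test of edgeR, upper-quartile scaling, filterByExpr, a mean RPKM of at least 1, the replicate number as a block, each sample left out and, for events, junction tags only, a coverage of 10 or 50, an edgeR interaction test, a Cochran-Mantel-Haenszel test, adjustment over all types and mean inclusion. Scripts were tested on simulated data. Sequences and positions came from GENCODE M21 transcripts and RefSeq (GRCm38).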

Additional observations from a re-analysis of the deposited data

How the results depend on the processing

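None of the 8 genes and none of their events was called under any alternative. The log2 fold changes of *Dlx1*, *Dlx2*, *Lhx6*, *Gad1* and *Gad2* kept their sign in all 10 alternatives each, with *Dlx1* between 0.070 and 0.12, *Lhx6* between 0.13 and 0.15, *Gad1* between 0.13 and 0.19 and *Gad2* between 0.093 and 0.22, while *Dlx2* moved between -0.15 and -0.025. With 1 sample left out, the lone sample was assumed to vary like the others. The log2 fold change then ran from -0.068 to 0.097 for *Dlx5*, -0.23 to 0.15 for *Dlx6* and -0.066 to 0.26 for *Gsx2*, reversing without control 1 and without *Qk cKO* 2 for *Dlx5*, without *Qk cKO* 2 for *Dlx6*, and without control 2 and without *Qk cKO* 1 for *Gsx2*. The Δ*I* of the *Lhx6* alternative 3′ splice site ran from -0.017 to 0.0083, turning positive without control 1 and without *Qk cKO* 2. With 1 sample in a group, inclusion was recalculated without a call.

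The number of called genes, the background of the comparison, was 110 and depended on the processing. It was 57 with the exact test, 11 with filterByExpr and 10 with a mean RPKM of at least 1. With 1 sample left out it ran from 0 without control 2 to 428 without *Qk cKO* 1, with 11 without control 1 and 68 without *Qk cKO* 2. Without *Qk cKO* 1, *Sp9*, *Six3*, *Calb2* and *Prox1* were also called lower and *Dlx6as1* higher, as were 5 non-neural genes. The cause was not tested. Called events numbered 862 with Fisher's exact test and 64 with the edgeR interaction test.

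With the replicate block 192 genes were called, and 0 of the 8, while *Slc6a11* passed the threshold (FDR = 0.0673 by edgeR). Deviations of samples with the same number correlated at 0.303 over 12928 expressed genes and at -0.081 over the 12442 on autosomes, and no label states that a number marks a shared litter, so the pairing was not used. The ratio of *Gad1* to *Gad2* moved to 1.58 with GENCODE transcript lengths, an alternative chosen after the data were seen. *Gsx2* had at most 220 tags per sample and the *Lhx6* cassette exon at most 63 for a form, which sets the counting error of these values.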
